A study of Mus musculus with 6 samples.

Results

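The C/EBP (CCAAT/enhancer-binding protein) family of transcription factors comprised 6 of the 47606 genes measured, Cebpa, Cebpb, Cebpd, Cebpe, Cebpg and Ddit3. They were picked by gene symbol, with earlier results of these data known. RNA sequencing gave transcript levels for 6 libraries of 32D cells, a mouse myeloid progenitor line grown in interleukin 3 at 1 ng/mL. Every library, controls included, came from cells with dCas9-KRAB, a Cas9 that cannot cut DNA joined to a repressor domain. The cells had received lentivirus carrying no guide (empty vector, EV), guide sg2 or guide sg5, with 2 libraries for each, and were selected with puromycin for a week. A CEBPE enhancer is named in the title of the series, and the stated design compares EV with knock-down by either guide, so the question followed here is how the rest of the family stood when Cebpe was low. A library is called sg5 replicate 2 in its title but sg2 in its source name and its genotype. The title was followed, and results for a single guide are given with this in view. Values are FPKM, which divides fragments by gene length and by depth, so that levels of different genes can be set side by side as an approximation. That division takes no account of base composition. The share of G and C in the coding sequences ran from 50.6% (Cebpg) to 73.3% (Cebpb). Its part in the order, shares and ratios of the members was not tested.

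C/EBP proteins bind DNA as dimers through a basic region and a leucine zipper at the C-terminal end of the protein. In the granulocyte lineage Cebpa is known for commitment of progenitors, Cebpe for late maturation and secondary granule genes, and Cebpb for granulocyte production under stress. Cebpd is an acute-phase member, and Cebpg lacks the activation domains of its relatives and acts through its partners. Ddit3, also called CHOP, is a stress-induced member that dimerises with other C/EBP proteins and directs them away from their usual sites.

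The basic regions are similar enough that the coding sequences are shown here, because short reads must tell the members apart before any level can be compared. In the GENCODE M21 transcripts (GRCm38), the 60-base coding window of Cebpe most like Cebpa was set against the best window without gaps of Cebpa, Cebpb, Cebpg and Ddit3. Capitals mark bases that differ from Cebpe.
Cebpe: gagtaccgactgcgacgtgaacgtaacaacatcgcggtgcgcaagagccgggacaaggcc
Cebpa: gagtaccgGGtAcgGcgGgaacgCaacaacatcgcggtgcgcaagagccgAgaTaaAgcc
Cebpb: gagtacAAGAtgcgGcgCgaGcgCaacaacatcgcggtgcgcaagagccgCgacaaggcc
Cebpg: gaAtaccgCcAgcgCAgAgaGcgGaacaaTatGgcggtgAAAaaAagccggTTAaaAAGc
Cebpa and Cebpb each matched Cebpe at 51 of the 60 bases and Cebpg at 40. The best window of Ddit3 matched at 26 bases. The longest run shared by any pair was 29 bases, between Cebpa and Cebpb. Over all annotated transcripts of the 6 genes, no pair shared a run of 31 bases.

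The genes lie on 5 chromosomes (GRCm38). Cebpe is on chromosome 14 (54710360 to 54712174, minus strand), Cebpb on chromosome 2 (167688915 to 167690418, plus strand), Cebpd on chromosome 16 (15887286 to 15891031, plus strand) and Ddit3 on chromosome 10 (127290774 to 127296288, plus strand). Cebpa (35119293 to 35121928, plus strand) and Cebpg (35046422 to 35056573, minus strand) are 62.7 kb apart on chromosome 7. All 6 are annotated as protein-coding in GENCODE M21, although the deposited tables list Cebpd as a pseudogene. Genes on the opposite strand overlap Cebpa (an antisense gene, ENSMUSG00000108624), Cebpb (Tmem189), Cebpd (Spidr), Cebpg (an antisense gene, ENSMUSG00000108333) and Ddit3 (Mars). Whether the counting used strand is not given in the sources used here, so reads in those overlaps are uncertain.

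The libraries held between 31400000 and 46400000 implied fragments, and 3 fragments on a transcript of 1 kb correspond to between 0.0647 and 0.0955 FPKM. All 6 members lay far above that floor in every library. For the members with a single annotated transcript, Cebpe had between 600 and 4850 implied fragments and Cebpb between 1310 and 2620. Of 12 myeloid progenitor markers, 11 were above 0 and 9 averaged at least 1 FPKM. Ptprc (a surface phosphatase of blood cells) lay between 85.5 and 105 FPKM and Prtn3 (a primary granule protease) between 234 and 372 FPKM. Mpo ranged from 12.3 to 151 FPKM and Elane from 1.4 to 2.5 FPKM. Cd34 (0.194 to 0.329 FPKM) and Csf2ra (0.0557 to 0.236 FPKM) were low, and Kit was listed at 0 in all 6 libraries. Libraries with the same replicate number were more alike than libraries with the same construct, so each guide library is also given relative to the EV library of its own number.

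In the EV libraries all 6 members were expressed, and their order was not the same in the 2 libraries. In EV replicate 1 the levels ran from Cebpe at 42.0 FPKM through Cebpb (35.6), Cebpa (32.2), Cebpg (21.6) and Ddit3 (17.2) down to Cebpd at 9.21 FPKM. In EV replicate 2 Cebpa came first at 136 FPKM, followed by Cebpe (100), Cebpg (32.2), Cebpb (25.9), Ddit3 (24.0) and Cebpd (7.91). Cebpd was the lowest member in all 6 libraries. Over both EV libraries Cebpa averaged 83.9 ± 73.2 FPKM and Cebpe 71.2 ± 41.3 FPKM (SD, n = 2), and their ranges overlap. Cebpb (30.8 ± 6.82), Cebpg (26.9 ± 7.53) and Ddit3 (20.6 ± 4.79 FPKM) followed. Cebpb overlaps Cebpg and Cebpg overlaps Ddit3, while Cebpb lay below Cebpe without overlap. Cebpd at 8.56 ± 0.92 FPKM did not overlap any other member.

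**Figure D1:**
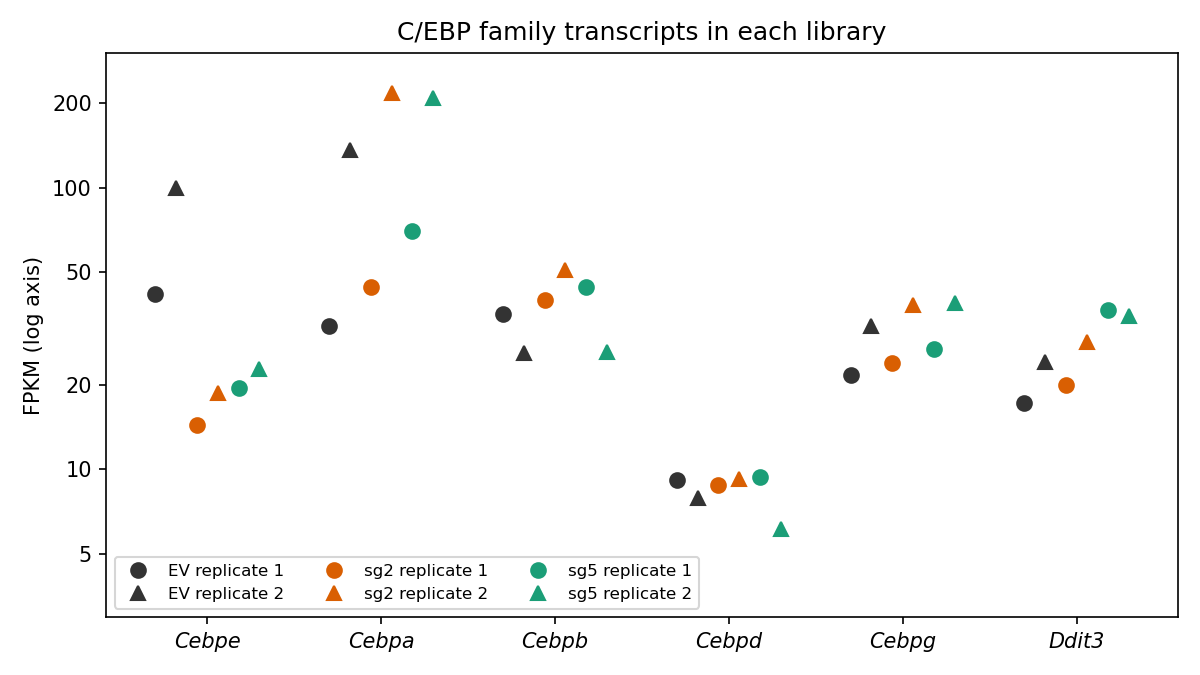
FPKM of the 6 family members (log axis) in each library, with colour for the construct and circles or triangles for replicate 1 or 2. The Cebpe points of the EV libraries lie above those of the guide libraries, Cebpa is high in all 3 replicate 2 libraries, and Cebpd lies below 10 FPKM throughout.

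Cebpe, the gene whose enhancer the title names, can check the labels of EV against guides, but not which guide a library had. The EV libraries had 42.0 and 100 FPKM, the sg2 libraries 14.4 and 18.7, and the sg5 libraries 19.4 and 22.7. The EV and guide libraries did not overlap. The spread among the guide libraries was small, with a coefficient of variation of 18.0%, while the EV libraries differed 2.39-fold. The log2 difference, on the log2(FPKM + 1) scale used throughout, was -1.75 (SE 0.36, 95% interval -2.63 to -0.88; limma adjusted p = 1.00, or 0.223 with the replicate number as a block). It was -2.37 without EV replicate 1 and -1.14 without EV replicate 2. It was -1.28 within replicate number 1 and -2.23 within number 2. That difference of -0.95 (SE 0.32) between the numbers had an interaction p in limma of 0.0381 (adjusted p = 1, limma), in a test chosen after seeing the data that called 0 of 12929 genes. Each number had 1 EV library, so the spread behind this SE and p was that between sg2 and sg5 libraries. It holds no spread between EV libraries.

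None of the 6 members passed the limma test of guides against EV over all genes (Benjamini-Hochberg adjusted p under 0.05). That test called 0% of the 12929 genes tested. With the replicate number as a block, which removes the shift between replicates 1 and 2, limma again called none of the 6, against 0.0387% of all genes. At an unadjusted limma p under 0.05, Cebpe alone passed without the block, where 1.31% of all genes did. With the block 3 members had an unadjusted p under 0.05, Cebpe (0.000489), Cebpa (0.00883) and Cebpg (0.0187), where 5.72% of all genes did. Restricted to protein-coding genes with the block, a choice made after seeing the data, Cebpe was called lower (limma adjusted p = 0.0173), where 0.133% of genes were called lower, and the other 5 were not.

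Cebpa, the factor of granulocyte-monocyte commitment, had higher values in the guide libraries than in EV of the same number. In replicate 1 it stood at 32.2 FPKM for EV, 44.3 for sg2 and 70.2 for sg5. In replicate 2 it stood at 136 FPKM for EV, 216 for sg2 and 208 for sg5. The guide libraries stood at 138% and 159% of EV with sg2 and at 218% and 153% with sg5, so 4 of 4 were above their own EV. Across numbers the groups overlap, because both replicate 1 guide libraries lie below EV replicate 2. The log2 difference was 0.71 (SE 0.86, 95% interval -1.38 to 2.80) without the block and 0.71 (SE 0.18, 0.26 to 1.16) with it, with limma adjusted p of 1.00 and 0.667. Leaving out EV replicate 1 turned the value without the block to -0.31, while with the block it was 0.64. By exact permutation (two-sided) p was 0.467, and 0.111 when only libraries of the same number were exchanged, which is the smallest value possible there.

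The promoter of Cebpa is shown because C/EBP proteins are known to bind at their own promoters. The 250 bases before the RefSeq start (GRCm38.p6, plus strand, chr7:35119043-35119292) hold 1 match to the C/EBP half-site TTGCG on either strand, marked in capitals at bases -185 to -181.
Cebpa: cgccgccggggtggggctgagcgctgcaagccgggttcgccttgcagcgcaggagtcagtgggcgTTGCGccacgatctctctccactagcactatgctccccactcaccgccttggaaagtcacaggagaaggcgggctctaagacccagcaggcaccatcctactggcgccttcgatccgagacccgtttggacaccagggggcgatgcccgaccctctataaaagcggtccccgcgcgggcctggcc
Of 32851 RefSeq promoter windows of this length, 14.5% hold TTGCG on either strand. The palindrome TTGCGCAA, which contains that half-site, is in 0.164% of windows and in none of the 4 member windows read, which were those of Cebpa, Cebpb, Cebpg and Ddit3. The element TGATGNAA, bound by ATF4 with a C/EBP partner, is in 3.45% of all windows and in none of the 4. The half-site TTGCG was not found in the windows of Cebpb, Cebpg or Ddit3. The CCAAT box (CCAAT on either strand, in 33.8% of windows) has 2 matches in Cebpg and 1 in Ddit3. These are matches of letters only.

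Cebpg, the member that works through its partners, had higher values in replicate 2 and above EV with both guides, as Cebpa did, with a smaller range. In replicate 1 it stood at 21.6 FPKM for EV, 23.9 for sg2 and 26.7 for sg5, and at 32.2, 38.2 and 39.1 FPKM in replicate 2. The 4 guide libraries stood between 110% and 124% of their own EV. The log2 difference was 0.22 within number 1 and 0.25 within number 2. For both together it was 0.24 (SE 0.27, 95% interval -0.43 to 0.90) without the block and 0.24 (SE 0.07, 0.06 to 0.41) with it (limma adjusted p of 1.00 and 0.797). Without EV replicate 1 the value was -0.04, or 0.25 with the block.

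Over the 6 libraries the log2 values of Cebpa and Cebpg had a Pearson r of 0.996. The 6 points share replicate numbers that separate both genes, so this is a description of 2 clusters of 3 libraries. Within each number, EV was the lowest library for both genes. Cebpa spanned 32.2 to 216 FPKM and Cebpg 21.6 to 39.1 FPKM, so the ratio of Cebpa to Cebpg went from between 1.49 and 2.63 in replicate 1 to between 4.21 and 5.66 in replicate 2. Pepd, a peptidase gene 1.71 kb from Cebpg, measured 58.4, 59.1 and 60.5 FPKM in EV, sg2 and sg5 of replicate 1 and 111, 135 and 121 FPKM in replicate 2. Its values separated the replicate numbers too, and EV was its lowest library within each number, as for Cebpa and Cebpg. In replicate 1 its values differed little between constructs.

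**Figure D2:**
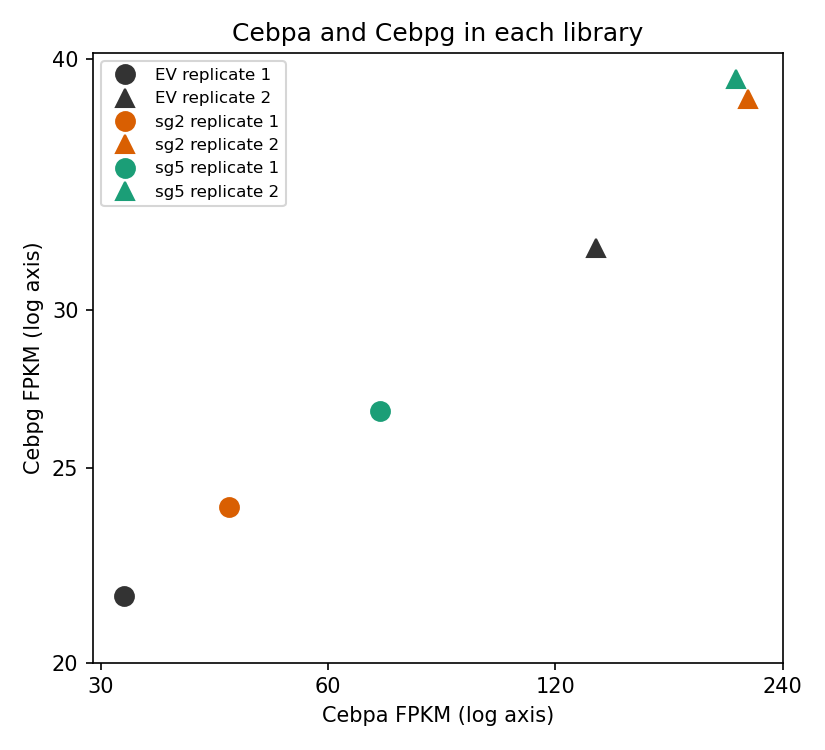
FPKM of Cebpa against FPKM of Cebpg (both log axes), 1 point per library, with colour for the construct and shape for the replicate number. The replicate 1 libraries lie at the lower left and the replicate 2 libraries at the upper right, with EV lowest within each number.

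Ddit3, the stress-induced member, had its highest values with sg5. The EV libraries had 17.2 and 24.0 FPKM, the sg2 libraries 19.9 and 28.3, and the sg5 libraries 36.9 and 35.1. Both sg5 libraries lay above all 4 others, and sg2 overlapped EV. The share of all genes with sg5 above the other libraries was not computed, so this separation is a description only. The log2 difference from EV was 0.21 (SE 0.26) with sg2 and 0.80 (SE 0.26) with sg5, both with a limma adjusted p of 1.00. With the block, the limma adjusted p for sg5 was 0.519 (0.00573 before adjustment). Between guides the difference was 0.58 (SE 0.26, 95% interval -0.07 to 1.23; limma adjusted p of 1.00, or 0.854 with the block). Without sg5 replicate 2, whose labels conflict, sg5 against EV was 0.83, and the difference between guides was 0.62. With that library counted as sg2, the difference between guides was 0.43 and sg2 against EV was 0.40. Over all libraries left out in turn, the difference between guides ran from 0.34 (without sg2 replicate 1) to 0.83 (without sg2 replicate 2), and with the block from 0.31 (without sg5 replicate 1) to 0.85 (without sg5 replicate 2).

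Cebpb, the member of stress granulopoiesis, varied by replicate. The EV libraries had 35.6 and 25.9 FPKM, the sg2 libraries 40 and 51.1, and the sg5 libraries 44.3 and 26.2. Its guide libraries stood at 112% and 197% of their own EV with sg2 and at 124% and 101% with sg5, so sg5 replicate 2 was level with its EV. The log2 difference was 0.36 (SE 0.29, 95% interval -0.34 to 1.06; limma adjusted p = 1.00), with 0.24 within number 1 and 0.48 within number 2. It was 0.14 without EV replicate 2 and 0.58 without EV replicate 1. With the block, sg2 against EV was 0.09 without sg2 replicate 2 and 1.03 without sg2 replicate 1.

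Cebpd, the acute-phase member, had the smallest difference of the 6. The EV libraries had 9.21 and 7.91 FPKM, the sg2 libraries 8.84 and 9.24, and the sg5 libraries 9.41 and 6.13. The guide libraries lay on both sides of EV, with 2 of 4 above it. The log2 difference was -0.04 (SE 0.20, 95% interval -0.51 to 0.44; limma adjusted p = 1.00). That interval leaves room for a change of up to about 0.5 log2 units in either direction.

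**Figure D3:**
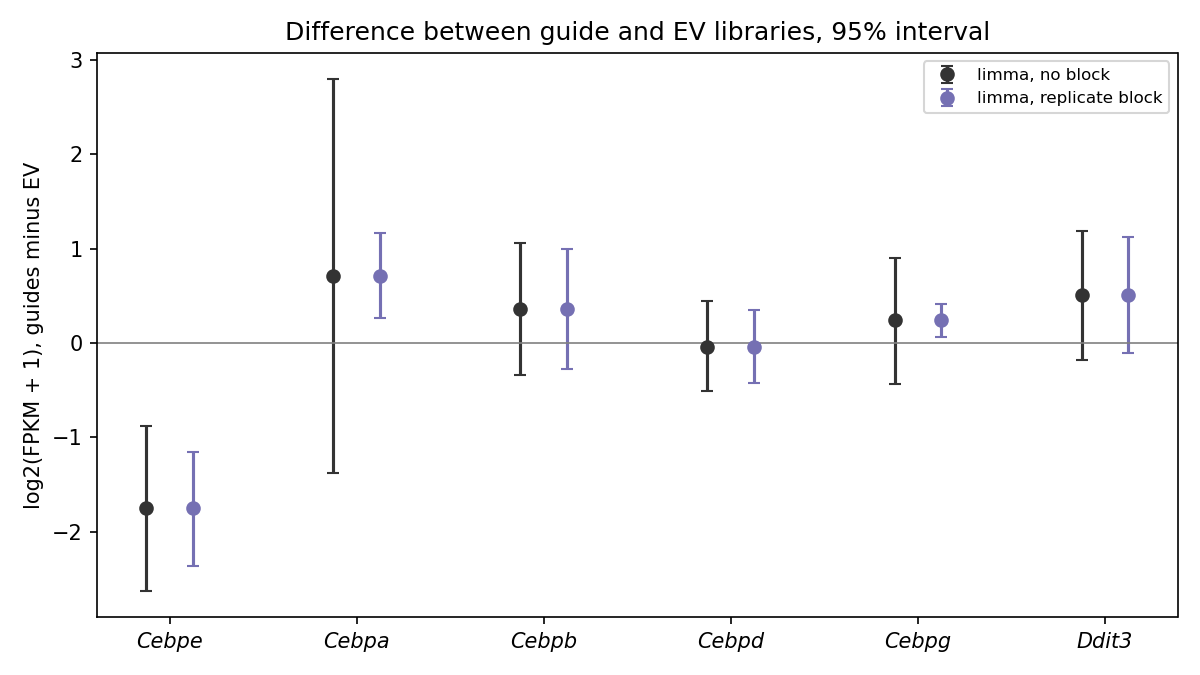
Log2 difference of guide minus EV libraries for each member with its 95% interval, from limma without (black) and with (purple) the replicate block. The estimates are the same in both fits, and the intervals of Cebpa (0.26 to 1.16) and Cebpg (0.06 to 0.41) lie above 0 only with the block.

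In all, 4 of the 6 members (Cebpa, Cebpb, Cebpg and Ddit3) had all 4 guide libraries above the EV library of their number, a pattern found in 12.5% of all genes tested. Cebpb is counted here by a narrow margin, with sg5 replicate 2 at 101% of its EV. Each pair of guide libraries shares 1 EV library, so the 4 comparisons are not independent. Cebpe was the only member with all 4 below, a pattern found in another 12.5%. The log2 differences had a median of 0.30 over the 6 members and 0.00 over all genes tested. Cebpe alone had guide and EV libraries that did not overlap, as did 2.56% of genes in that direction.

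For the guides taken singly, Cebpe had a log2 difference from EV of -1.92 (SE 0.43) with sg2 and -1.59 (SE 0.43) with sg5, and Cebpa 0.56 and 0.86 (SE 1.08 for both). Cebpg had 0.19 with sg2 and 0.28 with sg5 (SE 0.35), Cebpb 0.56 and 0.16 (SE 0.32), and Cebpd 0.07 and -0.15 (SE 0.24). These SE are from the fit without the block. With the block the estimates were the same. The SE for either guide was then 0.27 for Cebpe, 0.18 for Cebpa, 0.08 for Cebpg, 0.27 for Cebpb and 0.17 for Cebpd. limma called none of the 6 members with sg2 (0.00773% of all genes called, or 0.0232% with the block) and none with sg5 (0%, or 0.0155% with the block). At an unadjusted p under 0.05 these were 1 member of 6 with sg2 (Cebpe, where 1.16% of genes passed) and 2 with sg5 (Cebpe and Ddit3, where 1.36% did). With the block, 2 members had an unadjusted p under 0.05 with sg2 (Cebpe and Cebpa) and 4 with sg5 (Cebpe, Cebpa, Cebpg and Ddit3), where 4.3% and 8.04% of genes did. The 2 comparisons share the EV libraries. The difference between guides passed for 0 members and 0% of genes by limma, and only Ddit3 had an unadjusted p under 0.05 there, with the block alone (0.0187, where 5.29% of genes did).

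The order of the members by relative amount was not the same in EV and guide libraries. Cebpe made up 26.6% and 30.8% of the summed family FPKM in EV replicates 1 and 2. It made up 9.54% and 5.17% with sg2, and 9.37% and 6.72% with sg5. Its rank went from ranks 1 and 2 in EV to rank 5 in all 4 guide libraries, above Cebpd only. The mean share of 28.7 ± 2.94% (SD, n = 2) in EV and 7.70 ± 2.12% (SD, n = 4) with guides gave an exact two-sided permutation p of 0.0667, the smallest that 2 against 4 libraries allow.

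Cebpa took the first rank in all 4 guide libraries. Its share was 20.4% and 41.6% in EV, 29.3% and 59.8% with sg2, and 33.9% and 61.7% with sg5. It was higher than in EV of the same number in 4 of 4 guide libraries (exact permutation p = 0.333 over all libraries, and 0.111 within numbers, the smallest possible). The share of Ddit3 was 10.9% and 7.35% in EV and between 7.82% and 17.8% with guides (p = 0.467 by the exact permutation test). The shares of Cebpb, Cebpd and Cebpg had exact permutation p between 0.733 and 0.8. A share of 1 member moves when any other moves, so these 6 values are not separate results.

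The summed family FPKM was 158 and 326 in EV, 151 and 362 with sg2, and 207 and 337 with sg5. The groups overlap, with means of 242 ± 119 FPKM (SD, n = 2) and 264 ± 102 FPKM (SD, n = 4). Without Cebpe the sum of the other 5 was 116 and 226 FPKM in EV, 137 and 343 for sg2, and 188 and 315 for sg5. That sum was above EV of the same number in 4 of 4 guide libraries. The log2 difference was 0.50, with an exact permutation p of 0.467, or 0.111 within numbers.

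**Figure D4:**
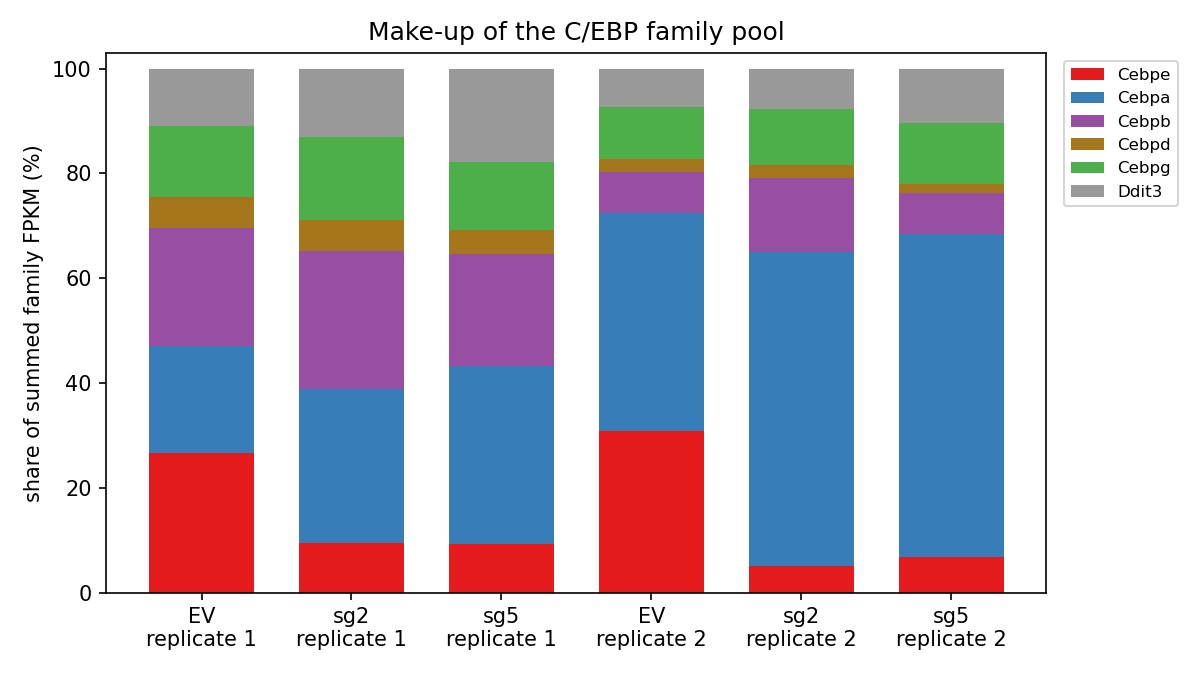
Share of each member in the summed FPKM of the family (stacked to 100%), 1 bar per library, grouped by replicate number. Cebpe (red) goes from 26.6% and 30.8% in EV to between 5.17% and 9.54% in the guide libraries, and Cebpa (blue) is the widest segment in all 4 guide bars.

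Ratios to Cebpe did not overlap between EV and guides for any of the 5 other members, in a comparison added after seeing the data. The ratio of Cebpa to Cebpe was 0.77 and 1.35 in EV, 3.07 and 11.6 with sg2, and 3.62 and 9.17 with sg5. The ratio of Ddit3 to Cebpe was 0.409 and 0.239 in EV and between 1.38 and 1.90 with guides, and that of Cebpg 0.514 and 0.321 against 1.38 to 2.04. Cebpb, Cebpg and Ddit3 were below Cebpe in both EV libraries and above it in all 4 guide libraries, while Cebpd stayed below Cebpe in all 6. Each of the 5 ratios had an exact permutation p of 0.0667, the smallest possible, and all 5 share the Cebpe values. Cebpe itself did not overlap between EV and guides, so a ratio can separate without a change in the other member. Cebpd is such a case, with a guide mean at 98.2% of its EV mean. The share of all genes whose ratio to Cebpe separates was not computed, so these ratios are no result about the other members.

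**Figure D5:**
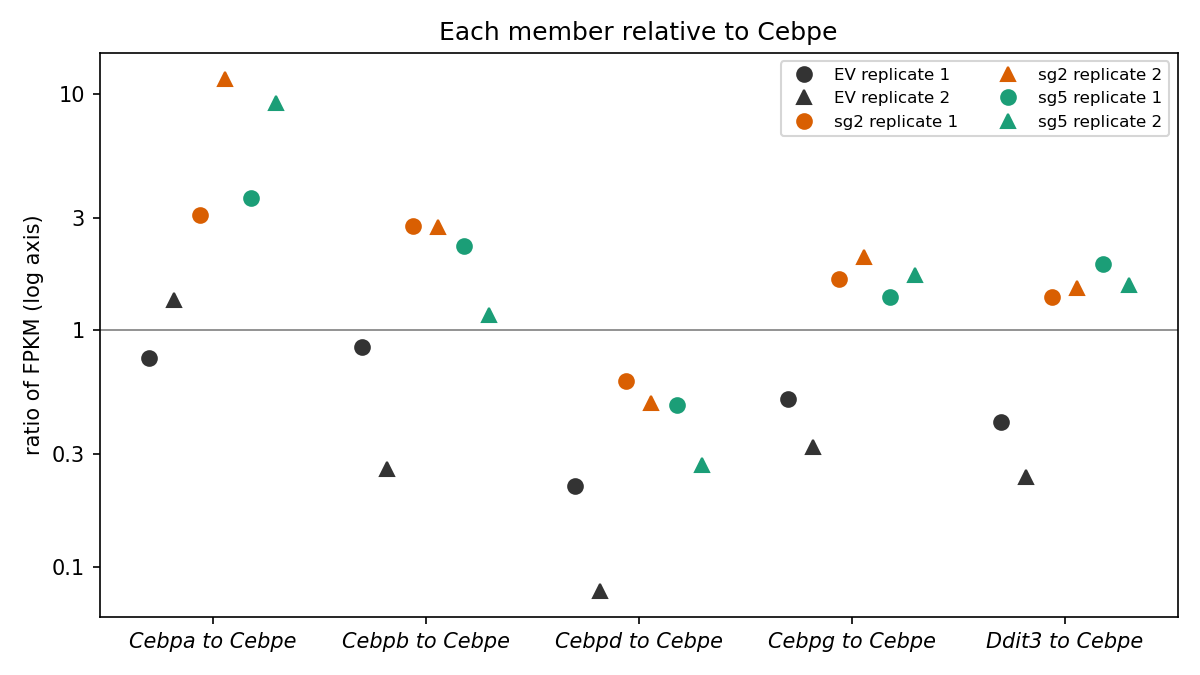
Ratio of each member's FPKM to that of Cebpe (log axis) in each library, with a line where both are equal. The EV points lie below the guide points for all 5 ratios, and Cebpa to Cebpe reaches 11.6 in sg2 replicate 2.

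The replicate number moved some members more than the guides did. With the construct as a covariate, Cebpa was higher in number 2 by 1.95 (SE 0.15) on the log2 scale (limma adjusted p = 0.00234) and Cebpg by 0.58 (SE 0.06, adjusted p = 0.00395). Cebpa had means of 48.9 ± 19.4 FPKM in number 1 and 187 ± 44.4 FPKM in number 2 (SD, n = 3 libraries of 3 constructs). The differences of Cebpe (0.60, SE 0.22), Ddit3 (0.29, SE 0.13), Cebpb (-0.28, SE 0.22) and Cebpd (-0.23, SE 0.14) did not pass. These 2 of 6 calls stand beside 47.1% of all genes called in that comparison, 20.2% as higher. Rescaling to protein-coding genes moved the median of all genes from -0.04 to 0.14, and Cebpe and Ddit3 then passed as well. Without either sg2 library Cebpb was -0.59 and passed (limma adjusted p of 0.0485 and 0.0483), and without either sg5 library Ddit3 was 0.47 and passed (0.0297 and 0.0292). Genes under 200 nt held between 6.77% and 9.67% of the summed FPKM in number 1 and between 15.4% and 21.5% in number 2. The part of this in the differences between numbers was not tested.

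Genes of the C/EBP network were read from lists by known role. Counts below cover the genes of each list that passed the filter of a mean of 1 FPKM. Of 36 bZIP factors in the files that can pair with or compete with C/EBP proteins, 27 passed and had 16 positive and 11 negative log2 differences, a median of 0.03 and 0 limma calls, with or without the block. The 3 of smallest p were Jund, an AP-1 subunit (18.8 and 12.9 FPKM in EV, 18.6 to 35.9 with guides), Fosl2, another AP-1 subunit (10.8 and 7.02 against 11.1 to 12.7 FPKM), and Atf1, a CREB relative (166 and 226 against 215 to 255 FPKM). Within numbers 1 and 2 their log2 differences were 0.12 and 1.23 (Jund), 0.13 and 0.66 (Fosl2), and 0.54 and 0.06 (Atf1). Atf4, which pairs with Cebpg and acts upstream of Ddit3, followed the replicate number, at 82.7, 86.1 and 87.0 FPKM in EV, sg2 and sg5 of replicate 1 and 27.6, 38.2 and 42.3 FPKM in replicate 2. It was chosen after its values were seen, for its tie to Ddit3.

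Of 40 regulators and partners of the family in the files, 34 passed the filter, and 18 of these had positive and 16 negative values (median 0.01), with 0 limma calls. Gfi1, a repressor that works with C/EBP factors in granulocytes, had EV values of 8.83 and 7.31 FPKM and guide values of 4.14 to 4.72 (log2 difference -0.75, SE 0.14; limma adjusted p = 0.996, or 0.252 with the block). Ikzf1, a zinc-finger factor of blood cells, had EV values of 3.25 and 1.34 FPKM and guide values of 0.82 to 1.44, and Stat5b, a mediator of interleukin 3 signals, 37.8 and 37.7 against 41.2 to 48.3 FPKM.

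Of 25 targets known for Cebpe in the files, 15 passed the filter, which a gene can pass through high values in EV alone. Of these, 14 had negative log2 differences and the median was -1.78, against 0.00 for all genes tested. Among the 10 that did not pass, Csf2ra, a cytokine receptor subunit, was above its own EV in 4 of 4 guide libraries, at 0.24 FPKM or less throughout, and Cd177, a neutrophil surface protein, in 3 of 4, at 0.93 FPKM or less. Their direction was known from these libraries when the list was written, so it is no independent evidence. limma called 0 without the block and 2 lower with it, where 0.0309% of all genes were called lower. Ltf, the lactoferrin gene of specific granules, had EV values of 7.67 and 13.9 FPKM and guide values of 0.72 to 2.70 (blocked limma adjusted p = 0.0310). S100a9, a calprotectin subunit, had EV values of 130 and 98.4 FPKM and guide values of 1.07 to 3.98 (0.0445). S100a8, the other calprotectin subunit (50.4 and 32.2 against 0.91 to 2.83 FPKM), Olfm4, a granule glycoprotein (6.80 and 9.40 against 0.35 to 1.75 FPKM), and Lyz2 did not pass in either fit. Among protein-coding genes with the block, the fit in which Cebpe was called, all 3 were called lower too, with limma adjusted p of 0.00111 for S100a8, 0.0311 for Olfm4 and 0.0049 for Lyz2. Of 22 targets known for Cebpa in the files, some of them also in the list for Cebpe, 17 passed the filter, and 13 of these had negative values (median -0.28), among them Sema4a, a semaphorin, at 56.5 and 67.7 FPKM in EV and 47.0 to 57.4 with guides. limma called 0 of the 17.

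Of 26 inflammatory targets of Cebpb and Cebpd in the files, 14 passed the filter, and 5 had positive and 9 negative values (median -0.05, 0 limma calls). Nos2, the inducible nitric oxide synthase, had EV values of 2.87 and 0.26 FPKM and guide values of 3.34 to 14.6, and its log2 difference was 0.62 within number 1 and 3.51 within number 2. Il1b, a cytokine gene, had EV values of 6.27 and 4.68 FPKM and guide values of 6.19 to 12.7, and Tnf, another cytokine gene, 3.49 and 2.68 against 1.71 to 3.10 FPKM. Of 44 genes of the ATF4 and Ddit3 stress response in the files, Cebpg among them, 39 passed the filter, and 16 had positive and 23 negative values (median -0.02, 0 limma calls). Ero1l, an oxidase known as a Ddit3 target, had EV values of 197 and 78.5 FPKM and guide values of 197 to 323. Ddit4, a stress-induced inhibitor of mTOR, measured 102 and 92.4 against 108 to 145 FPKM, and Ppp1r15a, a phosphatase subunit that is a Ddit3 target, 20 and 25.9 against 21.3 to 41.8 FPKM. Within numbers 1 and 2 the log2 differences were 0.22 and 1.76 (Ero1l), 0.18 and 0.58 (Ddit4), and 0.20 and 0.61 (Ppp1r15a).

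In bulk samples, fewer cells of a type and less RNA per cell cannot be told apart. Of the 12 markers of late neutrophils, 11 were above 0, with Retnlg at 0 throughout. The 12 summed to 497 and 784 FPKM in EV and to between 199 and 247 FPKM with guides. Of the 7 that passed the filter, 6 had negative log2 differences and 1, Cxcr2, had a positive one. Most of the 12, such as S100a8, S100a9, Ngp, Ltf and Lcn2, are also in the list of Cebpe targets, so this sum is no separate reading. Of the 12 mast cell and basophil markers, 11 were above 0, with Mcpt4 at 0. These 12 summed to 1571 and 3103 FPKM in EV and to between 2282 and 3662 FPKM with guides. Most of it was Fcer1a, at 1081 and 2412 FPKM in EV and 1733 to 2767 FPKM with guides. The 10 eosinophil markers, 7 above 0, summed to 82.1 and 262 against 12.2 to 67.8 FPKM. Most of it was Epx, which is in the list of Cebpe targets too. Monocyte markers summed to between 29.5 and 51.6 FPKM in all libraries, most of it Adgre1. These levels moved beside those of the family, and their part in the family's values was not tested.

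The genes whose pattern over the 6 libraries was most like each member were found by Pearson r of log2 values among the 8884 genes that averaged 5 FPKM or more. With 6 libraries that share replicate numbers, a high r is easily reached, so the values are a description. For Cebpe they were Lyz2 (myeloid lysozyme, 0.993), Bin1 (a membrane-bending protein, 0.982), Alas1 (the first enzyme of heme synthesis, 0.972), Parp8 (0.967) and Lta4h (leukotriene A4 hydrolase, 0.964). Lyz2 had EV values of 173 and 578 FPKM and guide values of 48.4 to 79.6, and Lta4h 153 and 272 against 114 to 136 FPKM. For Cebpa they included Elmo2 (0.998) and Zfp688 (0.996), and for Cebpg they were Tspan31 (0.997), Ppp1r13b (0.996) and Lat2 (0.996). For Cebpb they were Atp6v0c (0.992), Vgll4 (0.989) and Arf5 (0.985), for Cebpd Gps2 (0.996), Pex6 (0.989) and Tradd (0.988), and for Ddit3 Lysmd4 (0.989), Gab2 (0.977) and St3gal1 (0.972).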

How the data were processed

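The authors deposited 1 table of FPKM values per library, per the file headers, and each lists 47606 genes. Named in the submitters' processing notes, without roles, are DESeq2, kallisto 0.43.0, mm10 and GRCm38. The deposited position column puts 100% of entries on chromosome 1 and was not used. Positions come from GENCODE M21 (47187 IDs matched) and promoters from RefSeq (GRCm38.p6). For the annotation release behind the FPKM, and for the guide sequences, the entry is: not given in the sources used here. Depth was estimated from steps between low FPKM values of 752 single-transcript genes over 4000 nt, with an assumed fragment length of 200 nt, and covers counting error only.

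Tests covered the 12929 genes whose mean reached 1 FPKM, on log2(FPKM + 1), which understates changes of low genes, with limma 3.58.1 in R 4.3.3 (intensity trend, Benjamini-Hochberg adjustment, threshold 0.05), after checks on simulated data. The 4 guide libraries were tested against 2 EV libraries, and a fit with 3 groups gave the single guides. Single values had exact permutation tests. Python 3.11.15, numpy 2.4.6, pandas 2.3.3 and matplotlib 3.10.9 were used.

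Across genes, the deviations of same-numbered libraries from their group means had correlations of 0.583 to 0.611, so the numbers were taken to pair the libraries. This reading comes from the data, not the labels. No label calls the replicates separate cultures: the spread behind each p-value is that between these libraries and may be technical.

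Members and lists were chosen with earlier results of these data known. The named genes are the members, the genes of each list past the threshold with or without the block and the 3 of smallest p, some of the genes that overlap or adjoin a member, and the genes most like each member (5 for Cebpe, 3 for the others). A gene and a sequence that these rules select are not reported here. Alternatives covered pseudocount, filter, scaling, trend, libraries left out, the replicate block and the conflicting label.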

Additional observations from a re-analysis of the deposited data

How the results depend on the processing

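With 2 EV libraries, limma without the block called no gene for guides against EV. Even S100a9, with a log2 difference of -5.05, was not called (limma adjusted p = 0.0811). The exact permutation test cannot go below 0.0667. A missed threshold therefore does not show that a member stayed the same. With the replicate block, the count of called genes was 5 for guides against EV, 3 for sg2 and 2 for sg5, against 0, 1 and 0 without it, and the block changed no call of a member. Other settings gave 1 gene with a pseudocount of 5, 6 without a filter, 4 without the trend, 1 among protein-coding genes and 18 among those with the block, the last with Cebpe (-1.75). For sg2 the count was 2 with a pseudocount of 5 or quantile normalization, and 0 without a filter, at a mean of at least 5 FPKM, or with sg5 replicate 2 counted as sg2. Without a filter 18 genes passed for sg5 and 23 between guides. Leaving out 1 library gave 0 to 1 gene for guides against EV (0 to 2 with the block), 0 for sg2 (0 to 1 with the block), and 3036 to 4277 between replicate numbers, against 6089 with all libraries. Members called there went from 2 to 4 when scaled to protein-coding genes.

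The sign of some member differences turned when 1 library was left out, and the cause was not tested. Over the libraries left out, without the block, the highest values for guides against EV were 1.73 for Cebpa and 0.51 for Cebpg, and the lowest for Cebpd was -0.13. For sg2 the highest were 1.69 for Cebpa, 0.17 for Cebpd, 0.52 for Cebpg and 0.46 for Ddit3. For sg5 they were 1.88 for Cebpa and 0.53 for Cebpb, and the lowest for Cebpd was -0.42. Between guides they were 1.43 for Cebpa and 0.42 for Cebpg, and the lowest for Cebpd was -0.49. For guides against EV, Cebpa was -0.31 and Cebpg -0.04 without EV replicate 1, and Cebpd was 0.06 without that library and 0.09 without sg5 replicate 2 (0.08 with the block). For sg2, Cebpa was -0.46 or -0.57, Cebpg -0.09 or -0.14 and Ddit3 -0.01 or -0.03 without EV replicate 1 or sg2 replicate 2. Cebpd was -0.02 without EV replicate 2, -0.14 without sg2 replicate 2 with the block, 0.00 with TPM scaling and -0.09 with sg5 replicate 2 counted as sg2. For sg5, Cebpa was -0.16 without EV replicate 1, Cebpb was -0.06 without EV replicate 2 and -0.21 without sg5 replicate 1 (-0.18 with the block), and Cebpd was 0.13 without sg5 replicate 2 or with it counted as sg2 (0.09 with the block). Between guides, with that library counted as sg2, Cebpa was -0.84, Cebpb 0.22, Cebpd 0.22 and Cebpg -0.29. There, with libraries left out, Cebpa was -0.83, -0.48 or 0.00, Cebpb 0.07, Cebpd 0.05 or 0.02, and Cebpg -0.23 or -0.17.

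The difference in share of Cebpb (2.17 percentage points) was -2.11 with Cebpe left out of the sum, and ran down to -5.13 and -0.828 without EV replicate 2 or sg2 replicate 1, with a highest value of 9.48. That of Cebpg (0.92) was -2.66 with Cebpe left out, and -0.981 and -0.0997 without the same libraries, with a highest value of 2.82. That of Cebpd (-0.44) was 1.26 without EV replicate 1 and 0.184 without sg5 replicate 2, with a lowest value of -2.14. The mean Cebpd level in EV was 10.2 when scaled to TPM. The sign of Cebpe was the same in every alternative run, from -2.37 to -1.14 when 1 library was left out.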

Other observations

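Cebpz, which shares the name but is no bZIP factor, had EV values of 33.4 and 23.2 FPKM and guide values of 21.5 to 30.3 (log2 difference -0.15, SE 0.20). Of the NF-Y subunits, which bind the CCAAT box as a trimer, Nfyb had EV values of 23.6 and 30.8 FPKM and guide values of 25.9 to 35.6. Nfyc followed the replicate number, at 33.8, 37.7 and 34.0 FPKM in EV, sg2 and sg5 of replicate 1 and 14.9, 16.9 and 16.3 FPKM in replicate 2. None of the 4 genes of this list was called by limma, with or without the block.

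ENSMUSG00000108624, the antisense gene that overlaps Cebpa, measured 0.381, 0.942 and 0.194 FPKM in EV, sg2 and sg5 of replicate 1 and 1.39, 3.19 and 2.15 FPKM in replicate 2. It was higher in replicate 2 for every construct, as Cebpa was. If reads were counted without strand, the 2 genes cannot be told apart in their overlap. Gm20431, 27.4 kb from Cebpb, measured 5.05 and 0.43 FPKM in EV and 9.46, 15.6, 2.74 and 15.3 FPKM in sg2 replicates 1 and 2 and sg5 replicates 1 and 2. Gm20431 was chosen after its values were seen. Slc7a8, 10 kb from Cebpe, measured 15.6, 12.6 and 17.7 FPKM in EV, sg2 and sg5 of replicate 1. In replicate 2 Slc7a8 measured 50.1, 23.1 and 23.4 FPKM. For 1700123O20Rik, 19.6 kb from Cebpe, the values were 21.6, 17.8 and 17 FPKM in replicate 1 and 26.6, 12.1 and 13.4 FPKM in replicate 2. A link of either gene to the Cebpe values was not tested.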
